A study of Mus musculus with 15 samples.

Results

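Plac9a and Plac9b are near-identical mouse genes named for placenta-specific transcripts, and their summed reads are described here across 15 RNA-seq libraries of cultured lung fibroblasts. They are 2 of the 48440 genes in the count table. They were picked by their fold changes, since the change with passage differed between the genotypes more for them than for other named genes. That used the unirradiated libraries, so levels and fold changes in those libraries are a description without a test. The groups, of 3 libraries each, were irradiated Atm+/+ cells at passage 2, harvested 10 days after 10 Gy of X-rays; unirradiated Atm-/- cells at passage 8 and at passage 2; and unirradiated Atm+/+ cells at passage 8 and at passage 2. All were primary cultures from C57BL/6 mice kept in 3% oxygen, with 3 cultures established for each genotype. The labels give neither the Atm allele nor the age of the mice.

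Plac9 genes encode a small protein that begins with a secretion signal, and their transcripts are found in mesenchymal cells of many tissues. ATM is the kinase that relays DNA double-strand breaks to checkpoint and repair proteins. Cultured fibroblasts without it are known to stop dividing early, and irradiated normal fibroblasts enter a lasting growth arrest called stress-induced premature senescence.

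Another copy, Gm9780, lies between the named genes. On mouse build GRCm38 (mm10), Plac9a (ENSMUSG00000095304) spans chr14:25887506-25903100, Gm9780 (ENSMUSG00000094800) spans chr14:26027282-26042711 and Plac9b (ENSMUSG00000072674) spans chr14:26167405-26182480, all on the minus strand. The annotated starts are 139.611 kb and 139.769 kb apart. The main GENCODE vM21 transcript of each has 4 exons. The transcripts are 1555 bases long for Plac9a, 1394 for Gm9780 and 1040 for Plac9b. Their coding sequences without the stop codon are the same at 324 of 324 bases. The first 300 are shown once, because they are why reads from the copies cannot be told apart, with the start codon in capitals.
Plac9a, Gm9780 and Plac9b: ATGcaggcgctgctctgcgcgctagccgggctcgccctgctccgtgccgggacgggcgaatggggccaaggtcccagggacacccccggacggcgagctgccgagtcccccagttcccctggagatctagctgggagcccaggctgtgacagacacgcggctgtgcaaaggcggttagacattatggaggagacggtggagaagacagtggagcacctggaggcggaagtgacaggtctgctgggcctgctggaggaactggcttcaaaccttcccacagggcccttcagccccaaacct

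Beyond the coding part the transcripts also share nearly everything. Of all 100-base windows of the main transcript, 941 of 941 of Plac9b, 1295 of 1295 of Gm9780 and 1450 of 1456 of Plac9a occur unchanged in another copy. Reads of such a length therefore fit more than 1 copy almost everywhere, and how the authors' counting dealt with them is not given in the sources used here. For this reason the comparisons use the sum of Plac9a and Plac9b. Gm9780 is set beside the sum as a further readout of the same sequence, not as independent support.

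The stretches just upstream of the genes are repeated too, as far as the windows compared here reach. RefSeq's promoter windows of Plac9b and Gm9780 are the same at 300 of 300 bases. The window of Plac9a matches them over 222 of 222 aligned bases, with its start set 78 bases apart. Only bases upstream of both the RefSeq and the GENCODE start are printed, in the direction of transcription. Capitals mark the part that the windows of Plac9a and Plac9b both cover. The lower-case bases of Plac9b lie beyond the edge of the Plac9a window and were not compared with Plac9a. Where the shared sequence ends is therefore not shown.
Plac9a, chr14:25903101-25903143, minus strand: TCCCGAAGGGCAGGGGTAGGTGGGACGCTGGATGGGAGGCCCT
Plac9b, chr14:26182481-26182601, minus strand: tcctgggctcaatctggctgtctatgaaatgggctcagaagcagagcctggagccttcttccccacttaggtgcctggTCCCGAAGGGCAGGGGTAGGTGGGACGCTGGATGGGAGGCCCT

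A search of the full windows on both strands found GGGCGG, the GC box, 4 times for Plac9a and 3 times for Plac9b. Of 32851 mouse promoter windows of the same length, 32.7% hold it. The windows held no TATAAA (the TATA box), which 12.4% of all windows hold, no CCAAT (33.8%) and no TGANTCA, the AP-1 motif (6.75%). Each GGGCGG match of Plac9a and Plac9b lay between the GENCODE and the RefSeq start, so inside the GENCODE transcript, and none lay in the printed stretches. None of these spellings contains another, and the counts describe letters only.

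Total counts ran between 13.6 and 39.2 M. Atm reads did not separate the genotypes: they were 0.873 to 2.37 CPM (TMM-normalised read counts, scaled to a common library size) in the Atm-/- libraries and 0.877 to 3.10 CPM in the Atm+/+ libraries. Since the labels do not say what the allele removes, Atm counts check nothing here, and genotypes are as labelled. Atm-/- passage 8 replicate 3 and Atm+/+ passage 2 replicate 3 stood apart. At an equal depth of 13.6 M they held 15037 and 17226 genes, against 20101 to 21978 in the other 13. The number of genes that lay below 0.1 of their median over the libraries, out of 9572 whose median reached 10 CPM, was 216 and 129 in these libraries and 0 to 107 in the others. Each of them also held the highest Plac9 level of its group, so results are given with and without them, and the part of library quality in them was not tested. The pan-fibroblast markers, led by Col3a1, Col1a1 and Col1a2, summed to 16305 to 21147 CPM in Atm-/- cells at passage 8 and 32716 to 49182 CPM in all others, so the labelled cell type is present throughout. Epithelial markers summed to at most 12.4 CPM.

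The summed Plac9a and Plac9b reads were lowest in irradiated cells and in Atm+/+ cells at passage 8. Irradiated libraries had 4.62, 8.73 and 5.87 CPM. Atm-/- cells at passage 8 had 152.6, 41.9 and 533 CPM, and Atm-/- cells at passage 2 had 20.6, 16.4 and 44.1 CPM. Atm+/+ cells at passage 8 had 3.04, 5.43 and 3.43 CPM, and Atm+/+ cells at passage 2 had 20.5, 42.2 and 179.8 CPM. The lowest level rests on 106 reads and the highest on 6079, so counting error is small beside the spread between cultures.

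The groups fell into a low pair and a high set. Irradiated cells and Atm+/+ cells at passage 8 overlapped each other, and their libraries lay below every other library. Atm-/- cells at passage 8 overlapped passage 2 cells of either genotype, and those groups also overlapped each other. Ordered by mean, the levels were 242.5 ± 257.6 CPM in Atm-/- cells at passage 8, 80.9 ± 86.4 in Atm+/+ cells at passage 2, 27.0 ± 14.9 in Atm-/- cells at passage 2, 6.41 ± 2.11 in irradiated and 3.97 ± 1.28 in Atm+/+ cells at passage 8 (SD, n = 3 each). Among neighbours in that order, only Atm-/- cells at passage 2 and irradiated cells did not overlap. The share of all genes whose groups separate in this way was not counted. Overlaps, here and below, therefore describe levels only.

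**Figure D1:**
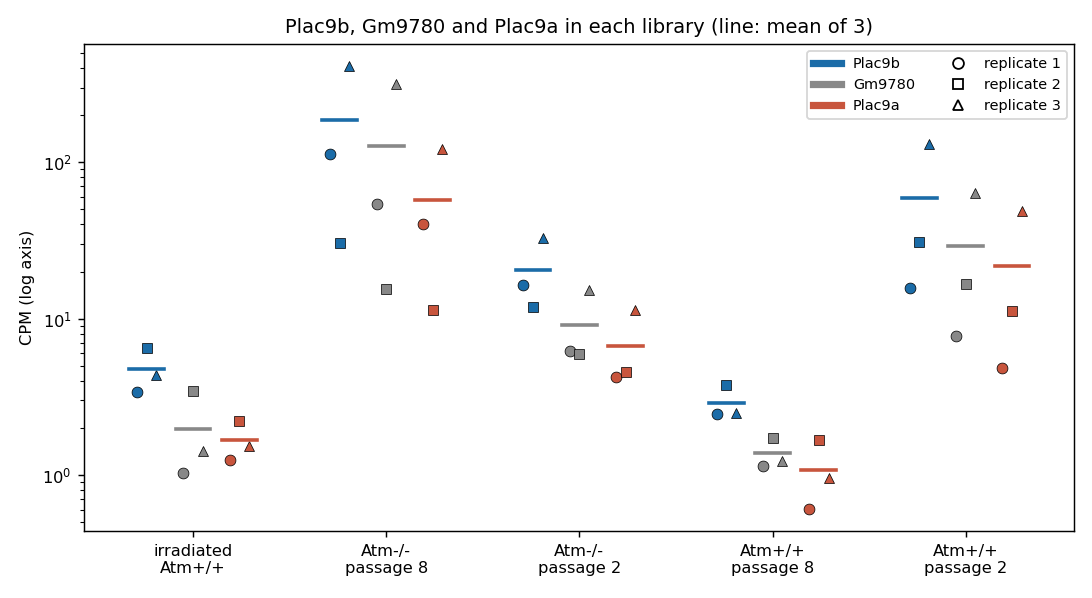
CPM of Plac9b, Gm9780 and Plac9a on a log axis in each of 15 libraries, by group; symbols mark the replicate number and lines the mean of 3. The 3 copies keep the same order of groups, with irradiated cells and Atm+/+ cells at passage 8 at the bottom and Atm-/- passage 8 replicate 3 at the top.

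Per length, the sum covered a similar range. TPM (transcript abundance per length, as deposited) were 7.63, 15.3 and 9.85 in irradiated cells. They were 200.2, 57.2 and 480 in Atm-/- cells at passage 8, 29.6, 25.6 and 66.6 in Atm-/- cells at passage 2, 4.41, 7.56 and 5.34 in Atm+/+ cells at passage 8, and 26.1, 65.7 and 180.4 in Atm+/+ cells at passage 2. Ranked with the sum among the 18166 genes then tested, the CPM stood at percentile 36.9 to 45.1 in irradiated libraries. It stood at percentile 75.1 to 97.9 in Atm-/- cells at passage 8, 55.2 to 76.4 in Atm-/- cells at passage 2, 33.4 to 39.9 in Atm+/+ cells at passage 8 and 60.65 to 93.4 in Atm+/+ cells at passage 2. Cultures of the same labelled cell type thus placed these genes in both the lower and the upper part of the tested genes.

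The deposited values of the copies gave the same order of groups, which is not independent for reads that fit more than 1 copy. Plac9a had 1.24, 2.22 and 1.54 CPM in irradiated libraries and 40.2, 11.3 and 120.9 CPM in Atm-/- cells at passage 8. It had 4.24, 4.57 and 11.3 CPM in Atm-/- cells at passage 2, 0.603, 1.66 and 0.961 CPM in Atm+/+ cells at passage 8 and 4.84, 11.2 and 48.6 CPM in Atm+/+ cells at passage 2. Plac9b was higher than Plac9a in all 15 libraries. It had 3.38, 6.51 and 4.33 CPM in irradiated libraries, 112.4, 30.6 and 412.1 in Atm-/- cells at passage 8 and 16.3, 11.8 and 32.8 in Atm-/- cells at passage 2. In Atm+/+ cells Plac9b had 2.44, 3.77 and 2.47 CPM at passage 8 and 15.7, 31.0 and 131.2 CPM at passage 2.

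Plac9a took 25.3% of the reads pooled over both genes. Its share per library ran between 19.8% and 30.6%, and 12 of 15 exact (Clopper-Pearson) 95% intervals held the pooled share. The mean share was 26.1% ± 0.71 in irradiated, 25.4% ± 2.34 in Atm-/- cells at passage 8, 24.7% ± 3.74 in Atm-/- cells at passage 2, 26.1% ± 5.64 in Atm+/+ cells at passage 8 and 25.7% ± 1.86 in Atm+/+ cells at passage 2 (SD, n = 3 each). So while the summed level ran between 3.04 and 533 CPM, the group means of this share ran only between 24.7% and 26.1%, a smaller range than the replicate SD of every group but the irradiated one. These intervals cover counting error only, since reads are not independent molecules.

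Gm9780 followed the same order of groups with a less even share. It had 1.03, 3.45 and 1.43 CPM in irradiated libraries, 54.0, 15.4 and 314.6 in Atm-/- cells at passage 8, 6.20, 5.90 and 15.3 in Atm-/- cells at passage 2, 1.15, 1.73 and 1.24 in Atm+/+ cells at passage 8 and 7.73, 16.5 and 63.5 in Atm+/+ cells at passage 2. Its share of the reads of the 3 copies was 29.5% when pooled, and 7 of 15 intervals held that value. The highest share, 37.1%, was in Atm-/- passage 8 replicate 3, one of the libraries with few genes, and the lowest, 18.3%, in irradiated replicate 1. Atm-/- passage 8 replicate 3 gave 3588 of the 9479 Gm9780 reads and so raised the pooled share. The median share over the libraries was 26.5%. How many intervals hold the pooled share therefore depends on that library.

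**Figure D2:**
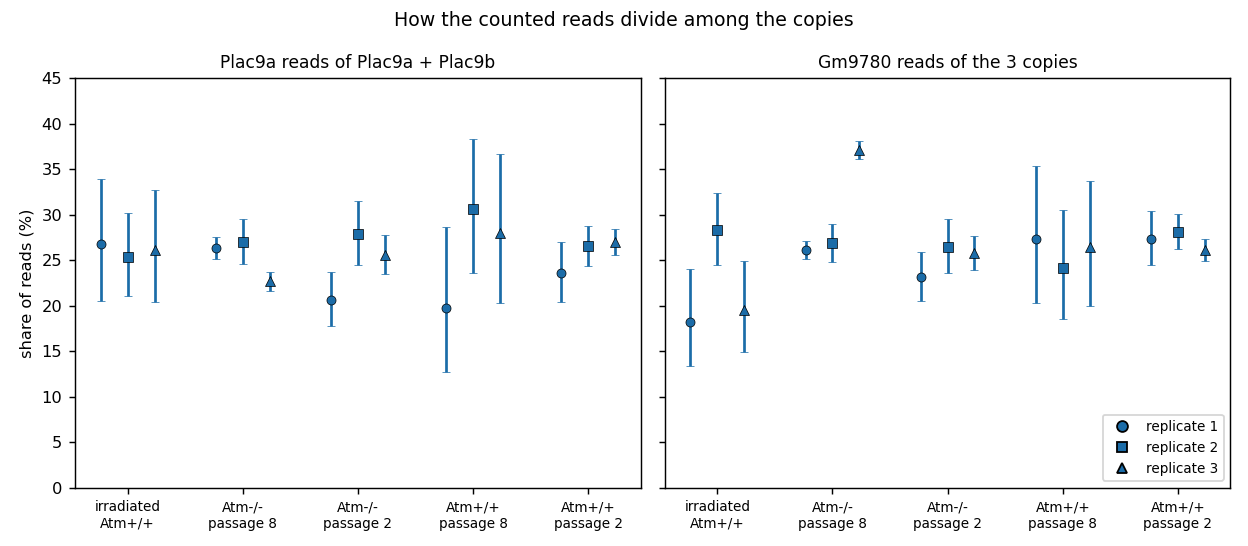
Share of reads in percent, with exact 95% binomial intervals, of Plac9a among Plac9a and Plac9b (left) and of Gm9780 among the 3 copies (right), per library. Plac9a stays between 19.8% and 30.6%, while Gm9780 reaches 37.1% in Atm-/- passage 8 replicate 3.

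In the unirradiated cells, passage moved the sum in opposite directions in the genotypes, which is the pattern it was chosen for. The log2 difference of passage effects, Atm-/- minus Atm+/+, was 7.51 (SE 1.28). In Atm-/- cells passage 8 stood 3.16 log2 units (SE 0.88) above passage 2. In Atm+/+ cells passage 8 stood at -4.35 (SE 0.94) relative to passage 2. The genotypes differed by 5.93 (SE 1.01) at passage 8, Atm-/- over Atm+/+, and by -1.58 (SE 0.83) at passage 2. The Atm+/+ passages did not overlap, nor did the genotypes at passage 8, whereas the Atm-/- passages did overlap, as did the genotypes at passage 2.

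The background of these comparisons was wide. At an adjusted p under 0.05 (edgeR, Benjamini-Hochberg over 18167 genes), 4.43% of genes were called for the difference of passage effects, 2.46% higher and 1.97% lower. For Atm-/- against Atm+/+ the share called was 9.32% at passage 8 and 0.969% at passage 2. For passage 8 against 2 it was 4.76% higher and 8.25% lower in Atm-/- cells, and 23.3% in Atm+/+ cells. Nothing is read from the position of Plac9a and Plac9b against these shares, since the choice used the same contrasts.

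For each copy alone, the log2 difference of passage effects was 7.42 (SE 1.31) for Plac9a, 7.54 (SE 1.29) for Plac9b and 8.21 (SE 1.47) for Gm9780. Ordered by the size of this difference among 11452 genes with a mean log2 CPM of at least 2, the copies took ranks 1 to 3. Just below stood Rn7s1, a 7SL RNA of the signal recognition particle, at 6.85 (SE 2.13). Cldn5, an endothelial tight-junction claudin, followed at 5.23 (SE 1.28), and Akap5, a scaffold for protein kinase A, at 4.98 (SE 1.21). Without the pair of libraries with few genes, Esm1, a secreted endothelial proteoglycan, led at 5.16 (SE 1.02), ahead of Gm9780 at 5.09 (SE 0.92), Plac9a at 4.88 (SE 0.89) and Plac9b at 4.85 (SE 0.83).

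The size of the description depended on those libraries. Without both, the difference for the sum was 4.85 (SE 0.85), the change with passage was 1.88 (SE 0.57) in Atm-/- cells and -2.97 (SE 0.63) in Atm+/+ cells, and the genotypes differed by 4.65 (SE 0.64) at passage 8. At passage 2 the genotype difference shrank to -0.20 (SE 0.58), so the lower level of Atm-/- cells there rested on Atm+/+ passage 2 replicate 3. The remaining libraries still separated: Atm-/- passage 8 replicates 1 and 2 stood at 152.6 and 41.9 CPM, against at most 5.43 CPM in Atm+/+ cells at passage 8.

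**Figure D3:**
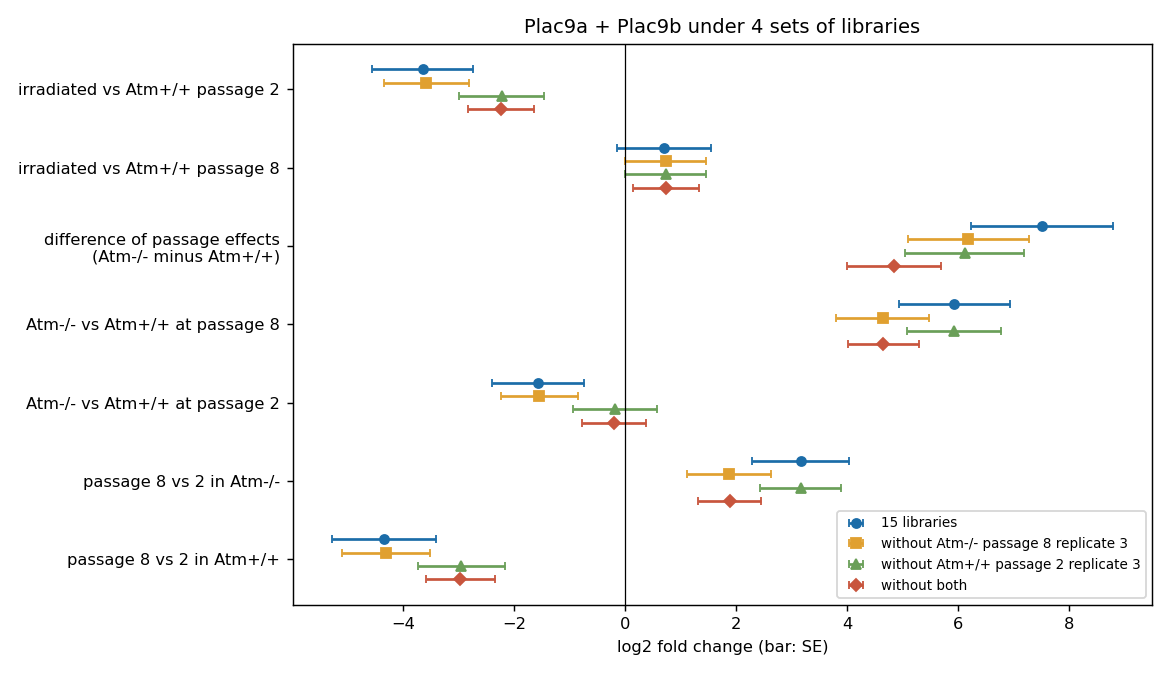
Log2 fold change of the summed Plac9a and Plac9b (bars, SE) in 7 comparisons, with all 15 libraries, without Atm-/- passage 8 replicate 3, without Atm+/+ passage 2 replicate 3 and without both. The difference of passage effects lies at 7.51 with all libraries and at 4.85 without both, and the genotype difference at passage 2 moves to -0.20.

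Irradiated cells held less Plac9 RNA than the unirradiated Atm+/+ cells of the same passage. The irradiated libraries took no part in the choice of the genes, but the unirradiated Atm+/+ libraries of either passage did, and a high passage 2 or a low passage 8 level there enlarges the difference the genes were picked for. Comparisons with them are therefore a description, like those above, with no test. Irradiated cells averaged 6.41 ± 2.11 CPM and unirradiated Atm+/+ cells of that passage averaged 80.9 ± 86.4 CPM (SD, n = 3 each), with every irradiated library below every one of the others. The fitted log2 fold change was -3.65 (SE 0.90), or 12.6-fold lower. It was -2.23 without Atm+/+ passage 2 replicate 3 and -2.24 (SE 0.60) without both libraries that held few genes. For the copies alone it was -3.68 for Plac9a, -3.64 for Plac9b and -3.88 for Gm9780. Over all genes edgeR called 11.0% higher and 16.5% lower in this comparison. Nothing is read from the position of the sum against these shares. Here, as in all bulk comparisons, fewer cells of a type and less RNA per cell cannot be told apart.

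Beside Atm+/+ cells at passage 8 the irradiated cells lay close. They averaged 6.41 ± 2.11 CPM and the passage 8 cells 3.97 ± 1.28 CPM (SD, n = 3 each), and the libraries overlapped. The fitted value was 0.70 on the log2 scale (SE 0.85). Beside Atm-/- cells at passage 8, which differ in genotype and passage as well, the irradiated cells stood at a log2 fold change of -5.24 (SE 0.97).

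The genes around Plac9a and Plac9b were measured in the same libraries. Annotation lists 48 genes within 500 kb of Plac9a or Plac9b, of which 42 were in the count table and 25 had enough reads to be tested. Without the 3 Plac9 copies 22 neighbours remained, and edgeR called 0 of them for the difference of passage effects, 0 for genotype at passage 8 and 0 for genotype at passage 2. Over all genes edgeR called 4.43%, 9.32% and 0.969% in these comparisons. At an unadjusted p under 0.05 the neighbour counts were 8, 2 and 5, beside 29.6%, 28.9% and 16.1% of all genes. DESeq2 called 4, 1 and 2 of the 22, beside 19.4%, 19.8% and 5.06% of all genes. Their log2 difference of passage effects had a median of -0.67 and ran between -5.19 and 1.65, beside a median of -0.14 over all genes tested.

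The locus repeats as a unit that holds a Plac9, a Tmem254 and a Duxbl gene. Whether reads of the Tmem254 or of the Duxbl copies can be told apart was not examined. Values of such copies, here and among the neighbours above, are therefore not independent support for each other. Tmem254a, Tmem254c and Tmem254b, which encode a transmembrane protein, start 24.6 kb, 164.3 kb and 303.9 kb beyond the start of Plac9a, each on the same strand as the Plac9 copy before it. Their log2 differences of passage effects were 0.37 (SE 0.65), 0.25 (SE 0.63) and 0.54 (SE 0.63), with edgeR adjusted p of 0.715, 0.808 and 0.572. Tmem254b had 8.96, 18.5 and 24.0 CPM in irradiated, 20.8, 17.4 and 34.3 in Atm-/- cells at passage 8, 23.3, 22.5 and 34.8 in Atm-/- cells at passage 2, 7.95, 17.1 and 20.4 in Atm+/+ cells at passage 8 and 12.5, 26.7 and 34.7 in Atm+/+ cells at passage 2. These groups overlapped each other, except that every Atm-/- library at passage 2 lay above every Atm+/+ library at passage 8.

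Duxbl1, Duxbl2 and Duxbl3, double-homeobox genes of the same repeat on the other strand, had few reads. Duxbl1 had 1, 0 and 0 reads in Atm-/- cells at passage 8 and 15, 5 and 17 in Atm-/- cells at passage 2. Duxbl2 had 1, 3 and 0 reads in Atm-/- cells at passage 8 and 20, 23 and 37 in Atm-/- cells at passage 2. Both fell with passage in Atm-/- cells (edgeR adjusted p 0.0336 and 0.0129), opposite in direction to the Plac9 copies of the same repeat. Since their reads may be shared, these calls may not be independent of each other. Over all genes 8.25% fell in that comparison. With only the groups compared the Duxbl2 call was lost (edgeR adjusted p 0.0587). Leaving out 1 library lost the Duxbl1 call in 7 of 15 fits, and the Duxbl2 call in 2, without Atm-/- passage 8 replicate 1 (edgeR adjusted p 0.0577) or Atm-/- passage 2 replicate 3 (edgeR adjusted p 0.0517). For neither was the difference of passage effects called by edgeR (adjusted p 0.0627 and 0.0703), while DESeq2 called it for Duxbl2 (adjusted p 0.0315). Cphx1, Cphx2 and Cphx3, homeobox genes of the repeat, had 1, 2 and 0 reads over all 15 libraries.

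On the other side, Anxa11, a calcium-dependent phospholipid-binding annexin whose start lies 60.9 kb before that of Plac9a, differed by -1.10 (SE 0.44) in its passage effects, with an edgeR adjusted p of 0.118. In Atm+/+ cells Slmap, a tail-anchored membrane protein gene, and Pde12, a phosphodiesterase gene, rose with passage by 0.87 and 0.92 log2 units (edgeR adjusted p 0.0163 and 0.00595). They were 2 of 22 neighbours, in a comparison that called 23.3% of all genes. In irradiated cells 4 of 22 neighbours rose and 3 fell relative to passage 2. Over all genes edgeR called 27.5% in this comparison, 11.0% higher and 16.5% lower, so the neighbours' share was near that of all genes. Zmiz1os1, Zmiz1, Slmap and Pde12 rose, by 3.16, 1.14, 1.13 and 1.17 log2 units. Zmiz1os1 had few reads, with 0 to 0.164 CPM in Atm+/+ cells at passage 2 and 0.637 to 1.01 CPM in irradiated cells. Gm26772, Ppif, the mitochondrial cyclophilin, and Zcchc24 fell, with log2 fold changes of -2.08, -0.64 and -0.83. In limma on log2(TPM + 1) none of these falls was called, at -0.49, -0.17 and -0.34 (adjusted p 0.0596, 0.505 and 0.0606). Ppif also fell relative to Atm+/+ cells at passage 8, at -0.67 (edgeR adjusted p 0.0245), and was the 1 neighbour called there, where 6.89% of all genes were called. That call was lost in 6 of 15 fits with 1 library left out, namely each irradiated and each Atm+/+ passage 8 one, and in limma on log2(TPM + 1) (log2 -0.40, adjusted p 0.304). The calls against passage 2 also depended on single libraries: without any single irradiated library those of Zmiz1, Gm26772, Ppif and Zcchc24 were lost, as they were without Atm+/+ passage 2 replicate 3. Out of 15 such fits against passage 2, Gm26772 lost its call in 6, Zmiz1 in 5, Ppif and Zcchc24 in 4 and Zmiz1os1 in 1, without Atm+/+ passage 2 replicate 1. The rise of Slmap with passage was lost without Atm+/+ passage 8 replicate 3 (edgeR adjusted p 0.0654).

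**Figure D4:**
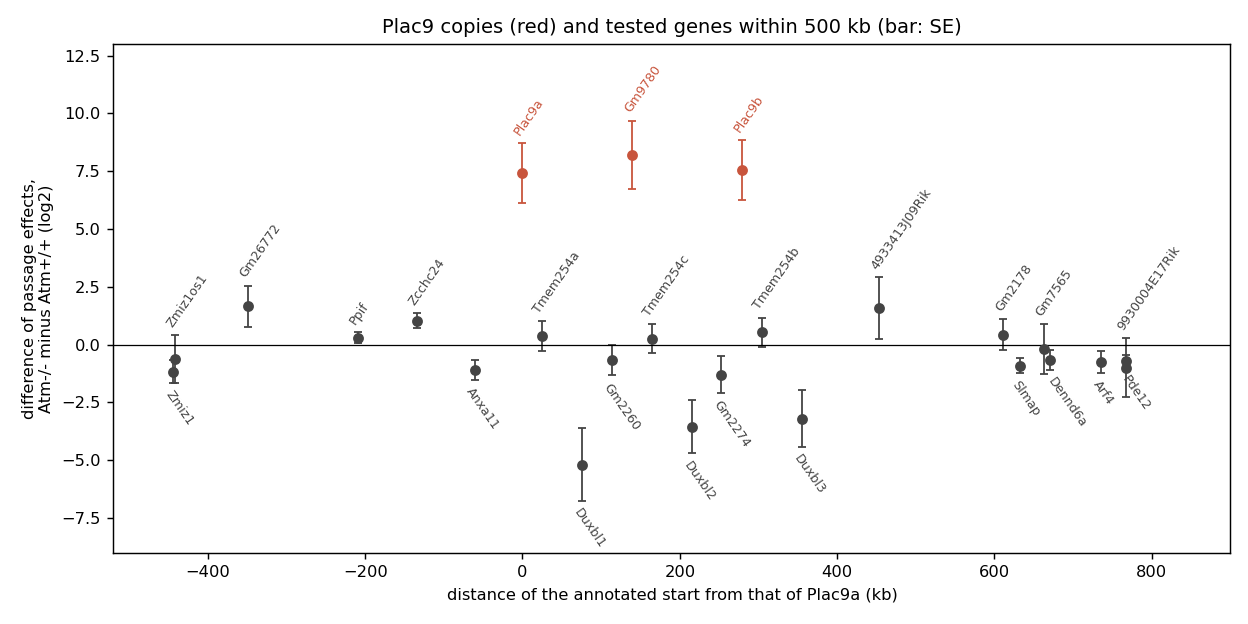
Log2 difference of passage effects (Atm-/- minus Atm+/+; bars, SE) of the 25 tested genes at the locus against the distance of their annotated starts from that of Plac9a in kb. The 3 Plac9 copies stand at 7.42, 8.21 and 7.54, the Tmem254 genes between 0.25 and 0.54 and the Duxbl genes below 0.

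Marker lists for fibroblast subtypes gave mixed counts beside Plac9. For the difference of passage effects, 4 of 18 adventitial fibroblast markers were higher and none lower, with a median log2 difference of 0.93. Of 14 alveolar fibroblast markers 3 were lower, among them Gdf10, a TGF-beta family ligand, at -2.74 (SE 0.62), and Itga8, an integrin subunit, at -2.38 (SE 0.40). Of 12 pan-fibroblast markers 1 was higher and 6 lower, including Col1a1 at -2.28 (SE 0.30). Of 13 smooth muscle and myofibroblast markers 7 were lower, including Acta2, smooth muscle actin, at -1.49 (SE 0.22). Of 10 pericyte markers 1 was higher and 1 lower. Over all genes 446 of 18167 (2.46%) were higher and 358 (1.97%) lower. Without the libraries with few genes the counts were 5 higher among adventitial, 2 higher and 3 lower among alveolar, 2 higher and 7 lower among pan-fibroblast and 9 lower among smooth muscle markers, in a fit that called 6.54% of all genes higher and 7.28% lower.

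The lists were also set beside Plac9 after irradiation. Relative to Atm+/+ cells at passage 2, 13 of 18 adventitial markers fell and 1 rose, with a median of -2.07 against -0.01 over all genes, of which 16.5% fell and 11.0% rose. Among them Igfbp4, an IGF-binding protein, fell by 2.97 log2 units and C3, a complement component, by 3.11, whereas Serpinf1, a secreted serpin, rose by 0.63. Conversely 10 of 13 smooth muscle and myofibroblast markers rose, with Acta2 at 1.70 (SE 0.16) and Tagln, an actin-binding protein, at 1.78 (SE 0.16). So the irradiated cells in which Plac9 RNA was low had higher contractile transcripts, and most of the adventitial list was lower in this comparison. Of 14 alveolar markers 7 also fell and 1 rose. Across all groups the adventitial sums did not keep the order of Plac9. They were 2366 to 3855 CPM in Atm-/- cells at passage 8 and 5605 to 6488 CPM in Atm+/+ cells at passage 8. Irradiated cells had 2740 to 3562 CPM. At passage 2 the sums were 5061 to 5495 CPM in Atm-/- cells and 9813 to 13298 CPM in Atm+/+ cells. Smooth muscle sums were highest where Plac9 was low: 23387 to 27038 CPM in irradiated and 17533 to 18948 CPM in Atm+/+ passage 8 cells. They were 9197 to 14493 CPM in Atm-/- cells at passage 8. At passage 2 they were 11462 to 14223 CPM in Atm-/- and 6564 to 9206 CPM in Atm+/+ cells. With passage in Atm+/+ cells, 8 of 13 smooth muscle markers rose and 1 fell. Of 18 adventitial markers 12 fell and 2 rose, beside 13.5% of all genes that fell and 9.80% that rose. For irradiated cells relative to Atm+/+ cells at passage 2, counts were also taken without the libraries with few genes. They were 13 lower and 1 higher adventitial and 11 higher and 1 lower smooth muscle markers. That fit called 22.9% of all genes higher and 23.3% lower.

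Markers of other cell types differed between groups and are given for that reason. The 10 endothelial markers summed to 99.3 to 288.4 CPM in irradiated, 18.7 to 57.6 in Atm-/- cells at passage 8, 420.9 to 635.4 in Atm-/- cells at passage 2, 8.26 to 11.4 in Atm+/+ cells at passage 8 and 609 to 1057 in Atm+/+ cells at passage 2. In Atm-/- cells at passage 8 Pecam1, an endothelial adhesion molecule, had 1.45 to 4.91 CPM and Cdh5, the endothelial cadherin, 0 to 3.24 CPM. The 14 macrophage markers summed to 1322 to 2386 CPM in irradiated, 35.2 to 57.5 in Atm-/- cells at passage 8, 985 to 1589 in Atm-/- cells at passage 2, 65.0 to 101.4 in Atm+/+ cells at passage 8 and 2205 to 3798 in Atm+/+ cells at passage 2. In Atm+/+ cells both lists and Plac9 reads were lower at passage 8 than at passage 2. In Atm-/- cells 14 of 14 macrophage and 10 of 10 endothelial markers were also lower at passage 8, beside 8.25% of all genes. Plac9 reads were higher there. Irradiated cells had macrophage sums that overlapped those of Atm+/+ cells at passage 2, while their Plac9 reads were lower. The part of endothelial cells and macrophages in the Plac9 levels was not tested in any group.

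Of these markers, 4 of 10 endothelial ones were higher and none lower for the difference of passage effects, 0 of 14 macrophage ones higher and 1 lower, beside 2.46% of all genes higher and 1.97% lower. Without the libraries with few genes 3 endothelial markers were higher, beside 6.54% of all genes. Cldn5 had its highest passage 8 level in 1 of them, with 0.873, 1.41 and 20.5 CPM in Atm-/- cells at passage 8 and 0.430, 0.305 and 0.439 CPM in Atm+/+ cells at passage 8. Its log2 difference was 5.23 with all libraries and 2.43 without those that held few genes. In irradiated cells relative to passage 2, 8 of 10 endothelial markers fell, beside 16.5% of all genes, and 10 of 10 without those libraries, beside 23.3%.

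Mesothelial markers, from the lining of the lung, had their highest sums in the groups with the highest mean Plac9 level. The 11 genes summed to 52.4 to 64.2 CPM in irradiated, 146.9 to 304.8 in Atm-/- cells at passage 8, 61.1 to 71.0 in Atm-/- cells at passage 2, 77.4 to 79.8 in Atm+/+ cells at passage 8 and 165.7 to 238.6 in Atm+/+ cells at passage 2. Different members made up these sums. In Atm-/- cells at passage 8, Nkain4 had 114.1 to 231.3 CPM and Msln, mesothelin, had 6.68 to 40.8 CPM, against at most 51.7 and 2.33 CPM in all other libraries. In Atm+/+ cells at passage 2 Rspo1, a Wnt pathway ligand, had 121.5 to 177.3 CPM, against at most 34.1 CPM elsewhere. Lrrn4 and Muc16 had at most 0.574 and 0.103 CPM in any library, and Wt1 had 0 to 0.867 CPM in Atm-/- cells at passage 8. For the difference of passage effects 1 of 9 tested members was higher, Nkain4 at 2.49 (SE 0.31), beside 2.46% of all genes, and 2 were higher without the libraries with few genes, beside 6.54%. The part of mesothelial cells in the Plac9 levels was not tested.

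Other genes with a placenta-related name were not called for the difference of passage effects. Plac8, a cysteine-rich protein gene, differed by -1.03 (SE 0.29) in its passage effects, with an edgeR adjusted p of 0.0545, and fell in irradiated cells relative to passage 2 by 0.79 log2 units (edgeR adjusted p 0.0139). Plet1, a placental glycoprotein gene with a mean of 2.83 CPM, differed by -0.13 (SE 0.97, edgeR adjusted p 0.936) and fell in irradiated cells by 1.73 log2 units (edgeR adjusted p 0.0271). Plac1 and Plac8l1 had too few reads to be tested.

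To find genes of similar shape, the centred log2 CPM of each of 10055 named genes was set against that of the sum over 15 libraries. Likeness was the root mean square difference, on which Gm9780 scored 0.30 and the median gene 2.25 log2 units. The 10 nearest genes were Adh1, Pycard, S100a13, Cspg4, Sncg, S100a10, Etfb, Bola2, Nme1 and Abca7, at 1.27 to 1.44, so none came close to Gm9780. Adh1, a class I alcohol dehydrogenase, had 2.45, 2.79 and 3.75 CPM in irradiated, 19.5, 13.5 and 23.6 in Atm-/- cells at passage 8, 10.6, 8.87 and 8.62 in Atm-/- cells at passage 2, 2.70, 4.82 and 4.17 in Atm+/+ cells at passage 8 and 20.5, 13.5 and 25.1 in Atm+/+ cells at passage 2. It kept the low pair of groups and the high set of Plac9, with a smaller range.

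Part of the likeness rested on the libraries with few genes. S100a13, a small calcium-binding protein gene, had 147.7, 112.3 and 730.6 CPM in Atm-/- cells at passage 8 and 171.6, 95.3 and 315.8 CPM in Atm+/+ cells at passage 2, highest in replicate 3 both times. Pycard, the inflammasome adaptor, had 15.2, 11.4 and 52.6 CPM in Atm-/- cells at passage 8 and 23.0, 14.1 and 41.5 CPM in Atm+/+ cells at passage 2, with replicate 3 again highest. Over the other 13 libraries only Adh1, Cspg4 (the NG2 proteoglycan) and Sncg (gamma-synuclein) stayed among the nearest 10, behind Fmo2, a flavin monooxygenase, at 0.79. Fmo2 had 15.4 to 27.9 CPM in irradiated, 37.3 to 92.4 in Atm-/- cells at passage 8, 43.3 to 49.7 in Atm-/- cells at passage 2, 8.70 to 10.7 in Atm+/+ cells at passage 8 and 6.53 to 53.3 in Atm+/+ cells at passage 2.

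Over all 15 libraries, mirrored profiles of named genes came closer than parallel ones. Mirrored profiles were not ranked over the 13 libraries, where the nearest parallel one, Fmo2, scored 0.79. Nid2, nidogen-2 of the basement membrane, scored 0.81 when its sign was turned, followed by Srpx, Cdc42ep3, Tmeff1 and Adamtsl1. Those that followed Nid2 all had their lowest level in Atm-/- passage 8 replicate 3, a library with few genes. The levels there were 1.40, 2.89, 0.789 and 0 CPM. Nid2 had 925, 548 and 1027 CPM in irradiated, 38.4, 235.2 and 47.6 in Atm-/- cells at passage 8, 195.8, 264.7 and 243.0 in Atm-/- cells at passage 2, 1100.4, 893 and 1486 in Atm+/+ cells at passage 8 and 172.9, 330.2 and 61.3 in Atm+/+ cells at passage 2. Every library of irradiated cells and of Atm+/+ cells at passage 8 thus exceeded every other library, the reverse of Plac9. The points share libraries and depth, and the genes were chosen for their likeness, so no test is given.

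**Figure D5:**
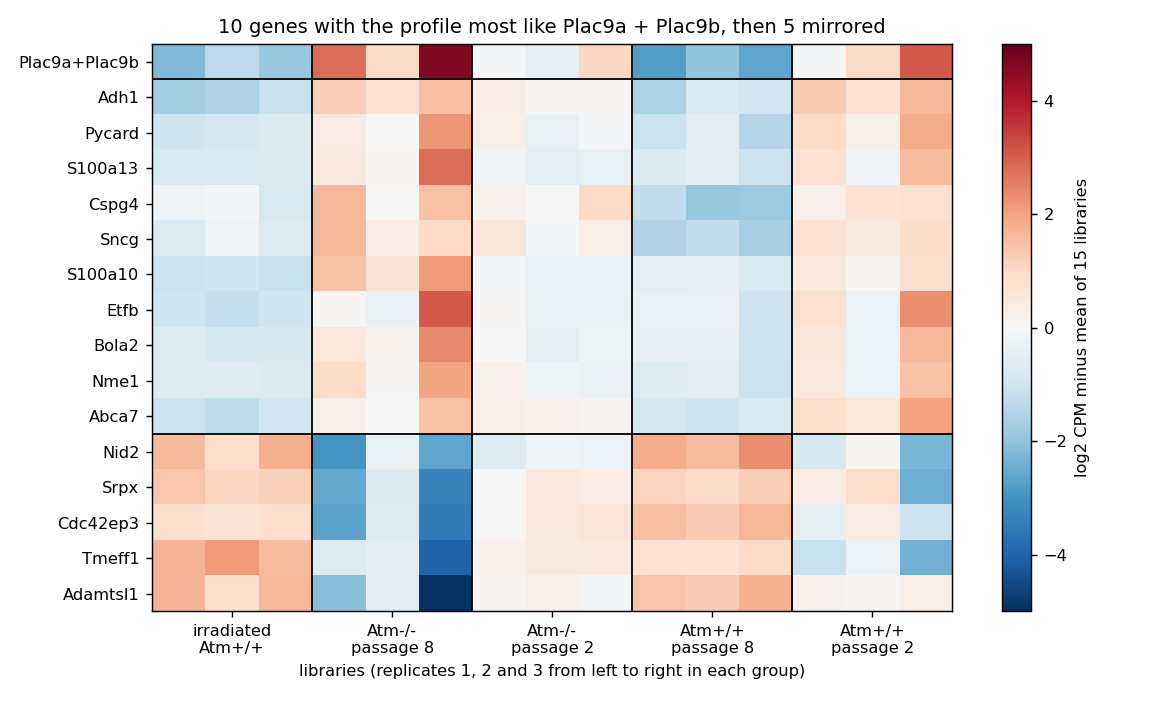
Log2 CPM minus the mean of 15 libraries (colour) for the summed Plac9a and Plac9b, the 10 genes most like it and the 5 most mirrored, with libraries in columns by group. Columns of irradiated cells and of Atm+/+ cells at passage 8 lie below that mean for the sum and the 10 similar genes, in some cases only slightly. They lie above it for the 5 mirrored genes, and Atm-/- passage 8 replicate 3 holds many of the extremes.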

How the data were processed

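Total RNA of 15 libraries was made into TruSeq libraries, per the labels. The authors deposited gene counts made with featureCounts on mm10 and used SAMtools 1.3.1, per the submitters' processing notes. The aligner, the strand setting and the handling of reads with several matches were not given in the sources used here. The authors also deposited TPM for 48082 genes. Symbols came from GENCODE vM21 (48058 of 48440 genes). The members, the gene lists and the tests were chosen with earlier results of these data known.

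Counts were fitted with edgeR 4.0.16 in R 4.3.3: filterByExpr, TMM, a robust quasi-likelihood fit with 1 mean per group and all 15 libraries, and Benjamini-Hochberg adjustment over 18167 genes at a threshold of 0.05. For the sum, Plac9a and Plac9b were replaced by 1 row. SE is the absolute log2 fold change over the square root of F. A test of irradiated against Atm+/+ cells had been planned for the sum, but those Atm+/+ libraries took part in the choice of the genes, so values are given without it. Steps were tested on simulated data. Per the series design 3 cultures were made for each genotype, but no label ties a library to one, so p-values measure the spread between these libraries. Total counts of 13.6 to 39.2 M set the precision of low genes. Named genes were the members, tested genes within 500 kb, the 10 nearest and 5 mirrored profiles, the 3 next below in difference and up to 4 list members of highest mean CPM; others were chosen after their values were seen. Alternatives used DESeq2 1.42.0, limma 3.58.1 on log2(TPM + 1) and log2(TPM + 0.1), other filters and fewer libraries. Sequences are from RefSeq (GRCm38.p6) and GENCODE.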

Additional observations from a re-analysis of the deposited data

Results flagged for a closer look

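The summed Plac9a and Plac9b differed in their passage effects between the genotypes by 7.51 log2 units, Atm-/- minus Atm+/+, and Gm9780 by 8.21. Both are what the genes were chosen for, so the difference is listed without a test. The genes named for their lists, locus copies and placenta-related names included, were those of highest mean CPM in each list. Of these 42 genes, edgeR called the difference for 11 (adjusted p under 0.05), beside 4.43% of all genes tested. A strict filter, which dropped low genes, called 1298 of 13858. Without Atm-/- passage 8 replicate 3 and Atm+/+ passage 2 replicate 3, 10 of the 11 were still called. The difference was positive for Cldn5 at 5.23 and Nkain4 at 2.49, and without those libraries at 2.43 and 1.98. Unlike Plac9, Cldn5 was lower at passage 8 than at passage 2 in both genotypes, as were all 10 endothelial markers. The difference was negative for Postn at -3.35, Gdf10 at -2.74, Actg2 at -2.52, Itga8 at -2.38, Col1a1 at -2.28, Col3a1 at -2.24, Col1a2 at -1.78, Tagln at -1.60 and Acta2 at -1.49. The exception was Col3a1 (log2 -1.83, edgeR adjusted p 0.0577). Groups of 3 libraries are too small to mark a single library as far from the others.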

How the results depend on the processing

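For the summed Plac9a and Plac9b every direction held under all alternatives that were run. The log2 difference of passage effects moved to 5.60 in limma on log2(TPM + 1), 5.82 on log2(TPM + 0.1) and 4.85 in 13 libraries, which leave out Atm-/- passage 8 replicate 3 and Atm+/+ passage 2 replicate 3. In those 13 the genotype difference at passage 2 was -0.20 and the Atm+/+ passage change -2.97. Leaving out 1 library at a time gave 6.12 to 8.04 for the difference, 4.64 to 6.43 and -2.11 to -0.19 for genotype at passages 8 and 2, 1.87 to 3.73 and -4.80 to -2.95 for passage in Atm-/- and Atm+/+ cells, -4.10 to -2.23 for irradiated against Atm+/+ passage 2 and 0.43 to 0.98 against Atm+/+ passage 8, and -5.71 to -3.91 against Atm-/- passage 8.

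The replicate number may mark a culture, but no label says so, and the deviations of same-numbered libraries from their group means correlated between -0.43 and 0.34. With a replicate block within genotype the difference was 6.59, passage -3.96 in Atm+/+ and 2.63 in Atm-/- cells, and irradiation -3.27 against passage 2 and 0.68 against passage 8. The block lost the neighbour calls of Zmiz1os1, Zmiz1 and Gm26772 for irradiation against passage 2 (edgeR adjusted p 0.0510, 0.0521 and 0.0989), of Ppif against passage 8 (0.0516) and of Duxbl1 for passage in Atm-/- cells (0.0974). The block moved the genes called for the difference to 144, against 804. Other settings gave 3532 (DESeq2), 2556 (13 libraries), 1298 (strict filter), 518 (no filter), 370 (log2(TPM + 0.1)) and 120 (only the groups compared) genes. For genotype the counts were 1693 at passage 8, 3592 with DESeq2, 4629 in 13 libraries and 18 with only the groups compared, and 176 at passage 2, with 919, 989 and 40 in the same settings. For passage they were 2362 in Atm-/- cells, 3636 with DESeq2, 5026 in 13 libraries and 868 with only the groups compared, and 4227 in Atm+/+ cells, with 7418 in 13 libraries and 2665 with only the groups compared. For irradiated cells they were 4998 against passage 2, 8561 in 13 libraries, and 1252 against passage 8, with 2005 (DESeq2), 4710 (13 libraries) and 6214 (only the groups compared). With 1 library left out, the count for the difference was lowest at 79 (Atm+/+ passage 8 replicate 3 missing) and highest at 4600 (Atm+/+ passage 2 replicate 2 missing). Of the nearest 10 profiles, 3 stayed in 13 libraries and 1 when deviations from group means were used. For named neighbours outside the single-library fits, 130 values kept their side of the threshold, 21 lost a call and 3 gained one.

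The Atm+/+ passage 8 and irradiated sums rest on 106 to 370 reads, so the copies were not compared further at that depth. The cause of the moves was not tested.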

Other observations

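Within a genotype the same replicate number held the lowest summed Plac9a and Plac9b level in every group. Replicate 1 had the lowest sum in irradiated, Atm+/+ passage 8 and Atm+/+ passage 2 cells, at 4.62, 3.04 and 20.5 CPM. Replicate 2 had it in Atm-/- cells, at 41.9 CPM at passage 8 and 16.4 CPM at passage 2. Plac9b and Gm9780 were lowest in the same 5 libraries. Plac9a alone was not, since its lowest Atm-/- passage 2 level was in replicate 1, at 4.24 CPM. In Atm+/+ cells Tmem254a, Tmem254b and Tmem254c of the same repeat were also lowest in replicate 1 of all 3 groups: Tmem254a had 6.14, 4.39 and 7.66 CPM there, against 11.1 to 15.6 CPM in the other irradiated, 11.98 to 12.4 in the other passage 8 and 18.1 to 23.8 in the other passage 2 libraries. In Atm-/- cells Tmem254b was lowest in replicate 2 at both passages. Tmem254a and Tmem254c were lowest in replicate 2 at passage 8 but in replicate 1 at passage 2. No label states that a number marks a culture, and the order of replicates was seen in the data and not tested.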
